A study of Mus musculus with 2 samples.

Results

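The cytochrome P450 genes of families 1 to 4 were taken from the gene table by symbol: Cyp, a single digit from 1 to 4 and then a letter, without symbols ending in -ps. This rule found 82 of 32285 genes, among them Cyp4x1os, an opposite-strand transcript. Of these, 70 had at least 1 unique molecular identifier (UMI, 1 counted mRNA molecule) in any barcode and 12 had none.

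P450 enzymes are haem proteins of the endoplasmic reticulum that insert 1 oxygen atom into their substrate, with electrons passed to them by the reductase Por. In liver, families 1 to 3 handle drugs, steroids and arachidonic acid, and family 4 hydroxylates fatty acids and leukotrienes. Nuclear and sensor receptors set many of them: AHR for Cyp1a, CAR for Cyp2b, PXR for Cyp3a and PPARA for Cyp4a. Their expression is also zonal in the normal lobule, with Cyp2e1 and Cyp1a2 known as genes of hepatocytes near the central vein and Cyp2f2 as a gene of hepatocytes near the portal tract.

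Single-cell RNA-Seq was performed on 2 mouse livers, 1 labelled Cebp KO and 1 labelled Cebp WT. Per the study, hepatocyte deletion came from albumin-cre acting on Cebpa fl/fl, in mice backcrossed to C57BL/6N, and the sex studied was male. Both mice were fed HFCFD (40% per the labels), the diet with which the study models MASH, metabolic dysfunction-associated steatohepatitis, for 2 weeks. Age was not given in the sources used here. The 2 libraries were deposited as 1 joined matrix in which a barcode ends in 1 or 2, and no label ties either ending to a genotype, so the libraries are named suffix 1 and suffix 2 throughout and were not assigned to a group. Cebpa, the targeted gene, was at 1.39 CPM (UMIs per 1000000 UMIs of all genes) with suffix 1 and 110 CPM with suffix 2 in the deep hepatocyte-like cells defined next. With 1 library each, genotype, animal and preparation cannot be told apart, and no p-value is given.

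After filters, 11617 cells with suffix 1 and 6088 with suffix 2 were kept, of which 7230 and 3723 were hepatocyte-like by a list of 12 hepatocyte markers. Cells with at least 5000 UMIs are called deep (541 with suffix 1, median 26423 UMIs; 513 with suffix 2, median 13301 UMIs), and droplets from 500 up to under 2000 UMIs are called shallow (5901 and 2467). The 12 hepatocyte markers summed to 110694 and 120535 CPM in deep cells, with no marker at 0. Among the other lists, Kupffer or macrophage markers summed to 61.4 and 135 CPM and endothelial markers to 21.7 and 36.9 CPM, with no gene of either list at 0. Erythroid markers summed to 388 and 277 CPM, plasma cell markers to 177 and 121 CPM and cholangiocyte markers to 123 and 149 CPM, each with 1 to 3 genes at 0, and each remaining list to at most 14.9 CPM. The deep cells of the libraries fell mostly into separate clusters, with 488 and 0 in cluster 9, 9 and 337 in cluster 11, and 0 and 170 in cluster 5. In all, 81 barcode sequences occurred with both suffixes, covering 4 and 3 deep cells. Intervals given below are exact 95% counting intervals and cover counting error only.

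The promoter sequences of 5 members that mark the ends of the patterns described here are shown first: Cyp2f2 and Cyp2e1, the highest members in deep and in shallow droplets, Cyp1a2, at the high end with Glul, and Cyp2c67 and Cyp2d9, near the high and low ends of the ratio between the libraries. Each is the 250 bases upstream of the start in RefSeq, build GRCm38.p6, 5′ to 3′ on the gene's strand. Capitals mark motif matches. The letters searched were TTGCNNAA for C/EBP and CAAAGTNCA for HNF4A, then TNGCGTG for the aryl hydrocarbon receptor AHR, and CTTTGAT for the Wnt-pathway factor TCF, each on both strands. The promoter box TATAAA was searched on the gene's strand only, and no motif holds another. The upstream window of Cyp2f2 lies at chr7:27119705-27119954 (plus strand), that of Cyp2e1 at chr7:140763569-140763818 (plus strand), that of Cyp1a2 at chr9:57683656-57683905 (minus strand), that of Cyp2c67 at chr19:39649043-39649292 (minus strand) and that of Cyp2d9 at chr15:82452127-82452376 (plus strand).
Cyp2f2: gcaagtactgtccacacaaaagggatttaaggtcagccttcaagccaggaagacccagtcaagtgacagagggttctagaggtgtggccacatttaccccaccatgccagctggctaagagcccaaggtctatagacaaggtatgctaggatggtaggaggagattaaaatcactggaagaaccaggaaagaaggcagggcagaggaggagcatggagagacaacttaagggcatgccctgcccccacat
Cyp2e1: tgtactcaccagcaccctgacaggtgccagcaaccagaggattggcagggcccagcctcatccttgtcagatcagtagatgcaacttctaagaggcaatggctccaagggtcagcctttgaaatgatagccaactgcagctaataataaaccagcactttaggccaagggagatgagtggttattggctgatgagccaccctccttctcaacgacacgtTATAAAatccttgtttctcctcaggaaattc
Cyp1a2: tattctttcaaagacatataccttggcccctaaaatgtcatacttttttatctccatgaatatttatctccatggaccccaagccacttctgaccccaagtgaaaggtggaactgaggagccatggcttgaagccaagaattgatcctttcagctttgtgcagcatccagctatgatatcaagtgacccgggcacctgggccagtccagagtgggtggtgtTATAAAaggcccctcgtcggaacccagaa
Cyp2c67: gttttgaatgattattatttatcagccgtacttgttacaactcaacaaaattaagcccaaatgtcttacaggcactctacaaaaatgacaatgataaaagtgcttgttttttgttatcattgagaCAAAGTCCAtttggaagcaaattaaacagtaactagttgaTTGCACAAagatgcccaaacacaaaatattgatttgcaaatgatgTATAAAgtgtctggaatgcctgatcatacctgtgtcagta
Cyp2d9: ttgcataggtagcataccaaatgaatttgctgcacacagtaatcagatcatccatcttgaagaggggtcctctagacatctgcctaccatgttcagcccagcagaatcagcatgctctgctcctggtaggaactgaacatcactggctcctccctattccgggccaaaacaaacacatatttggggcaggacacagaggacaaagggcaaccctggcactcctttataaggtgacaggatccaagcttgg

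Cyp2c67 held an HNF4A match, a C/EBP match and a TATA box, at 125, 85 and 40 bases before the start, while Cyp2e1 and Cyp1a2 held a TATA box only and these windows of Cyp2f2 and Cyp2d9 held none of the 5 motifs. Of the 82 members, 67 had a RefSeq promoter, in 74 windows. The C/EBP letters were in 24.3% of these windows against 9.56% of all 32851 promoters, the HNF4A letters in 18.9% against 1.19%, the TATA box in 25.7% against 7.59%, the TCF letters in 4.05% against 3.21%, and the AHR letters in 1.35% against 4.10%. By gene, 14 of the 67 members with a promoter held the C/EBP letters. Among the 22 of them at 10 CPM or more, 3 did (Cyp2c67, Cyp3a25 and Cyp4f14). Most C/EBP matches were thus in members under 10 CPM, such as Cyp2b9, Cyp2b10, Cyp2a4 and Cyp2a5, but so were most members with a promoter. Many members are recent copies of one another, so their windows are not independent of each other. A match is a description of letters and not a bound site.

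All 82 members matched a GENCODE M21 gene model on GRCm38. They lie mainly in gene clusters, with 19 on chromosome 4, 15 each on chromosomes 7 and 19, 10 on chromosome 5, 9 on chromosome 17 and 8 on chromosome 15. Because 3′ reads cannot be placed where copies are alike, the last 500 bases of each transcript were searched for words of 50 bases that also occur in other genes. Cyp2c67 and Cyp2c68 shared 51.2% of these 50-base words with another gene, Cyp2a4 and Cyp2a5 44.4% each, Cyp4a12a and Cyp4a12b 37.0%, Cyp2d10 34.6%, and Cyp2d9 29.1%, so their counts are uncertain. Cyp2f2, Cyp2j5, Cyp4v3, Cyp2c23 and Cyp1a2 shared none. Cyp2f2 (chromosome 7, 27119909 to 27133660, plus strand, up to 10 exons) overlaps Gm15883 on the other strand, and Cyp2e1 (chromosome 7, 140763739 to 140774987, plus strand, up to 9 exons) overlaps no gene. Both of these gene models begin before the RefSeq start, so the last bases of the printed Cyp2f2 and Cyp2e1 windows lie inside them.

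In deep cells, the summed members reached 7219 CPM in suffix 1, interval 7174 to 7265, and 5363 CPM in suffix 2, interval 5312 to 5414. Of the 82 members, 57 had at least 1 UMI there and 25 had none in either library, 30 reached a mean of 10 CPM over the libraries, and 16 reached 100 CPM. UMIs come from 3′ ends, so levels of different genes are compared here without scaling by length. The 5 highest members held 58.7% of member UMIs with suffix 1 and 49.95% with suffix 2.

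Cyp2f2, which activates naphthalene in mouse lung and liver, was the highest member in both libraries, with 28088 UMIs or 2061 CPM (2037 to 2085) in suffix 1 and 9224 UMIs or 1174 CPM (1150.0 to 1198) in suffix 2. It alone held 28.6% and 21.9% of member UMIs. Cyp2d9, a male-biased testosterone hydroxylase, followed at 980.1 and 456 CPM. Cyp2d10, Cyp2d26, Cyp2d22 and Cyp2d40, its neighbours on chromosome 15, were at 469 and 385, 281 and 349, 108 and 95.6, and 140.1 and 97.5 CPM. The Cyp2d subfamily held 27.6% and 25.8% of member UMIs, close to the share of Cyp2f2 alone with suffix 1.

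The members that act on arachidonic acid and other fatty acids came next. Cyp2j5, an epoxygenase, was at 351 and 311 CPM, and Cyp2c23, another epoxygenase, at 258 and 206 CPM. Cyp4a10 and Cyp4a14, PPARA targets that hydroxylate fatty acids, were at 376 and 197 CPM and at 134 and 115 CPM. Cyp4f14, a leukotriene hydroxylase, was at 248 and 169 CPM, and Cyp4v3, a fatty acid hydroxylase, at 227 and 237 CPM. Of these, Cyp4v3 alone had overlapping intervals in the libraries (219 to 235 and 227 to 248 CPM).

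Among the steroid, bile acid and drug enzymes, Cyp2e1 oxidises ethanol and acetaminophen. It was at 322 CPM (313 to 332) and 315 CPM (303 to 328), and the intervals overlapped. These sums were not matched for depth, and deep cells had medians of 26423 UMIs with suffix 1 and 13301 UMIs with suffix 2. Cyp2e1 fell with depth, as given below, so the overlap is not read as equal levels at equal depth. Cyp2a12, a testosterone hydroxylase, was at 245 and 275 CPM, Cyp2c70, the muricholic acid enzyme of mouse bile, at 251 and 146 CPM, and Cyp3a25, of the drug and steroid subfamily Cyp3a, at 59.9 and 161 CPM. Targets of the receptors ranged widely. Besides the PPARA targets above, Cyp2c29, a CAR and PXR target, was at 54.5 and 56.6 CPM. Cyp1a2, an AHR target, was at 7.56 and 15.8 CPM, Cyp3a11, a PXR target, at 12.8 and 43.0 CPM, and Cyp2b10, a CAR target, at 0.294 and 1.27 CPM on 4 and 10 UMIs. Of the 8 female-biased members on the list used, none reached a mean of 10 CPM.

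**Figure D1:**
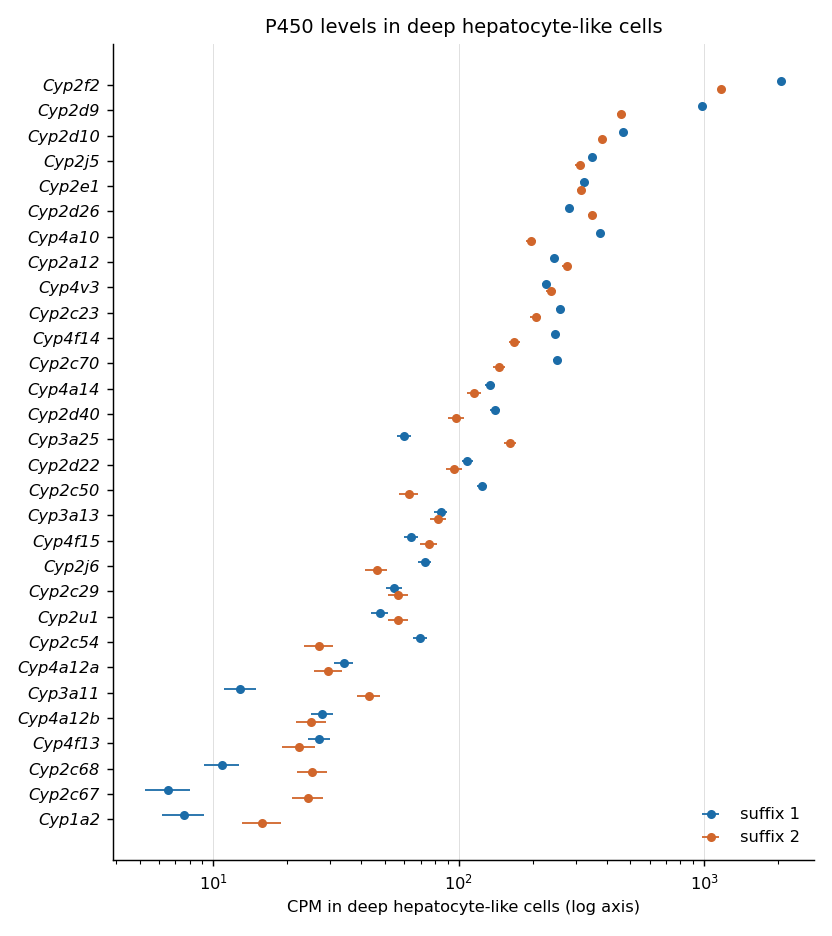
CPM of the 30 members with a mean of at least 10 CPM, in deep hepatocyte-like cells of each library, on a log axis. Points are sums over cells and bars are exact 95% Poisson intervals. Cyp2f2 lies highest in both libraries, and the points of Cyp3a25, Cyp3a11, Cyp2c68 and Cyp2c67 lie to the right with suffix 2.

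Free RNA from broken cells reaches every droplet, so B-like and T-like cells served as the background for the members known from hepatocytes. Some Cyp4f members are leukocyte genes and have no such background here: Cyp4f18 and Cyp4f16 are given last, and Cyp4f13 had 0.0735 and 0.0851 UMIs per T-like cell against 0.0307 and 0.0296 per shallow hepatocyte-like droplet. B-like cells held 11.7 member UMIs per cell with suffix 1 (199 cells) and 10.9 with suffix 2 (165 cells), and T-like cells 11.4 and 12.0. Deep hepatocyte-like cells held 182 and 82.1 member UMIs per cell, 15.5 (14.9 to 16.2) and 7.52 (7.18 to 7.89) times the B-like number. All 30 members at 10 CPM or more had more UMIs per deep cell than per B-like cell, with intervals above 1 in both libraries. These 30 were chosen by their level in the same deep cells, so this count was largely fixed beforehand, and it was not made over all genes. Cyp2a5, under that level, had 0.0998 and 0.199 UMIs per deep cell against 0.0402 and 0.170 per B-like cell.

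The excess was uneven among members. Cyp2f2 had 51.9 and 18.0 UMIs per deep cell against 2.02 and 0.964 per B-like cell, ratios of 25.8 (23.4 to 28.5) and 18.7 (15.95 to 22.0). Cyp2e1 had 8.12 and 4.82 against 2.03 and 2.31, ratios of 4.01 (3.62 to 4.45) and 2.09 (1.87 to 2.33). Cyp3a11 had 0.324 and 0.659 against 0.226 and 0.467, ratios of 1.43 (1.03 to 2.03) and 1.41 (1.10 to 1.83), the smallest excess among the 30 members in both libraries. As CPM, Cyp2e1, Cyp2c29, Cyp3a11, Cyp1a2 and Cyp2c67 were lower in deep hepatocyte-like cells than in B-like cells of both libraries. The part of free RNA and of depth in this was not tested.

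Shallow hepatocyte-like droplets did not exceed that background. They held 9.14 and 9.12 member UMIs per droplet, 0.779 (0.747 to 0.812) and 0.835 (0.796 to 0.877) times the B-like number. None of the 30 members had an interval above 1 against B-like or against T-like cells in either library, and 9 members with suffix 1 and 5 with suffix 2 had an interval below 1 against B-like cells. The 30 include Cyp4f13, for which these cells are no background, and no such count was made over all genes. Shallow droplets nonetheless had the higher share of P450 UMIs, at 8462 CPM (8391 to 8534) and 8686 CPM (8573 to 8801). Their mitochondrial share was lower, with a median of 1.81% and 3.46% against 17.0% and 15.6% in deep cells. Whether the P450 UMIs of shallow droplets came from free RNA or from the cell was not tested, and no level in them is read as expression.

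**Figure D2:**
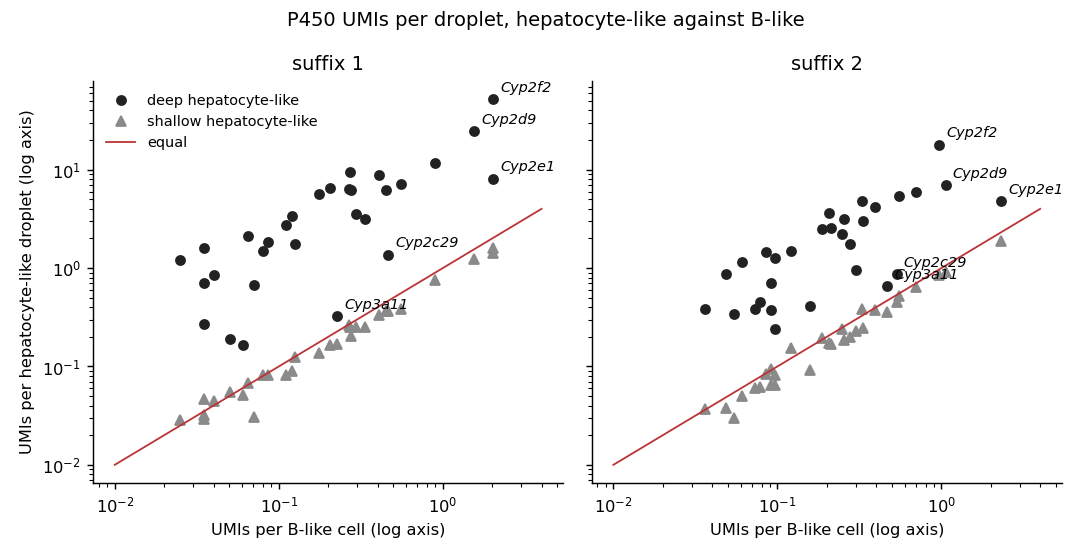
UMIs per droplet of the 30 members in hepatocyte-like droplets (vertical, log axis) against B-like cells of the same library (horizontal, log axis). Circles are deep and triangles shallow hepatocyte-like droplets, and the line marks equal numbers. Deep points lie above the line, with Cyp3a11 nearest to it in both libraries, and shallow points lie along or under it.

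After each cell was thinned to 5000 UMIs, 99.1% (97.9 to 99.7) of 541 deep cells with suffix 1 had a Cyp2f2 UMI and 96.9% (94.98 to 98.2) of 513 with suffix 2, against 72.9% of 199 and 60.1% of 138 T-like cells of that depth. Without thinning the shares in deep cells were 99.6% and 98.4%. The same shares for Cyp2e1 were 62.5% (58.3 to 66.6) and 71.5% (67.4 to 75.4) in deep cells, below the 80.4% and 85.5% in T-like cells. Thinning took most UMIs from deep cells and few from T-like cells, so these shares compare fractions of a cell's RNA, and per droplet Cyp2e1 was above both B-like and T-like cells (4.01 and 1.92 times the T-like number). Before thinning, the median was 26423 and 13301 UMIs in deep cells and 6475 and 6490.5 UMIs in those T-like cells. In this reading 23 of 30 members with suffix 1 and 18 of 30 with suffix 2 had a higher share in deep than in T-like cells with intervals apart. Cyp2e1 and Cyp2c29 with suffix 1, and Cyp2e1 with suffix 2, had a lower share. The 30 members were chosen by their level in deep cells and no such count was made over all genes, so these counts are not read further.

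Of the 16 members at 100 CPM or more, Cyp2e1 varied most between single deep cells relative to its mean, in both libraries. Among cells thinned to 5000 UMIs the variance of Cyp2e1 was 4.47 and 3.08 times its mean, with up to 25 and 27 UMIs in 1 cell against a median of 1. Cyp2c29 had a ratio of 4.95 with suffix 1 and up to 15 UMIs in 1 cell. Cyp2f2 had ratios of 1.91 and 1.79 and Cyp2j5 1.10 and 1.22. Across these cells the rank correlation of Cyp2d9 with Cyp2d10 was 0.50 and 0.19, that of Cyp4a10 with Cyp4a14 0.29 and 0.13, that of Cyp2e1 with Cyp2c29 0.17 and 0.18, and that of Cyp2e1 with Cyp2f2 -0.03 and -0.21 (541 and 513 cells of 1 library each, all thinned to the same depth). These are sparse counts, and the values are given as a description.

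The level of a member changed with droplet depth in a way that differed between members. Cyp2e1 fell from 1751 CPM under 1000 UMIs to 279.7 CPM at 20000 UMIs or more with suffix 1. With suffix 2 it fell from 2223 to 251 CPM, and in both libraries it was lower in each deeper bin. At 20000 UMIs or more Cyp2e1 was thus lower with suffix 2, while under 1000 UMIs it was higher with suffix 2. Cyp3a11 went from 201 to 12.3 CPM and from 423 to 30.7 CPM. Cyp2f2 went the other way, from 1499 to 2047 CPM and from 839 to 1186 CPM, with its lowest value in the bin from 2000 UMIs with suffix 1 and in that from 1000 UMIs with suffix 2.

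Between deep and shallow droplets, 8 members were at least 2-fold lower in deep cells in both libraries: Cyp2e1, Cyp3a11, Cyp1a2, Cyp2a5, Cyp2c29, Cyp2c37, Cyp2c67 and Cyp2c68. With suffix 1 these were all of the members past this fold, 8 of 33 with a mean of 10 CPM or more over the 2 depths, where 4.74% of all genes were. With suffix 2 it was 11 of 33, where 1.52% of all genes were, adding Cyp2c50, Cyp2c54 and Cyp4a12a. No member was at least 2-fold higher in deep cells of either library, where 17.4% and 14.9% of all genes were. The median log2 ratio of deep over shallow was -0.21 and -0.51 for the members and 0.16 and 0.21 for all genes.

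Cyp2e1 was at 0.2197 (0.212 to 0.228) and 0.177 (0.169 to 0.186) times its shallow CPM, Cyp3a11 at 0.0820 (0.0694 to 0.0964) and 0.128 (0.112 to 0.145), and Cyp2c29 at 0.161 (0.148 to 0.175) and 0.131 (0.117 to 0.146). Cyp2a5, a coumarin hydroxylase, was at 0.0606 (0.0447 to 0.0805) and 0.143 (0.112 to 0.181). A ratio above 1 in both libraries was seen for 8 members, among them Cyp2f2 at 1.57 (1.53 to 1.61) and 1.44 (1.37 to 1.51), Cyp4v3 at 1.77 (1.63 to 1.91) and 1.43 (1.29 to 1.60), Cyp2u1, a fatty acid hydroxylase, at 1.79 (1.51 to 2.14) and 1.57 (1.26 to 1.99), and Cyp4f15 at 1.47 (1.28 to 1.69) and 1.59 (1.31 to 1.95). Of 32 members with a mean of 10 CPM or more in both libraries, 20 were below 1 in both and 4 were split. Shallow droplets held no more P450 UMIs than B-like cells, and the part of free RNA in these ratios was not tested.

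Members of the Cyp2c and Cyp3a subfamilies did not move as a block. Among the Cyp2c members at 10 CPM or more, all on chromosome 19, the ratio of deep over shallow ran from 0.137 for Cyp2c67 to 1.68 for Cyp2c23 with suffix 1 and from 0.131 for Cyp2c29 to 1.17 for Cyp2c23 with suffix 2. In the Cyp3a subfamily on chromosome 5 it ran from 0.082 and 0.128 for Cyp3a11 to 1.33 and 1.34 for Cyp3a13. The Cyp2d and Cyp4f members at 10 CPM or more stayed between 0.604 and 1.47 with suffix 1 and between 0.531 and 1.59 with suffix 2. With suffix 1 the Cyp2j members ran from 0.960 to 1.13 and the Cyp4a members from 0.828 to 1.62. With suffix 2 all members of both were below 1, from 0.753 to 0.844 for Cyp2j and from 0.495 to 0.841 for Cyp4a.

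**Figure D3:**
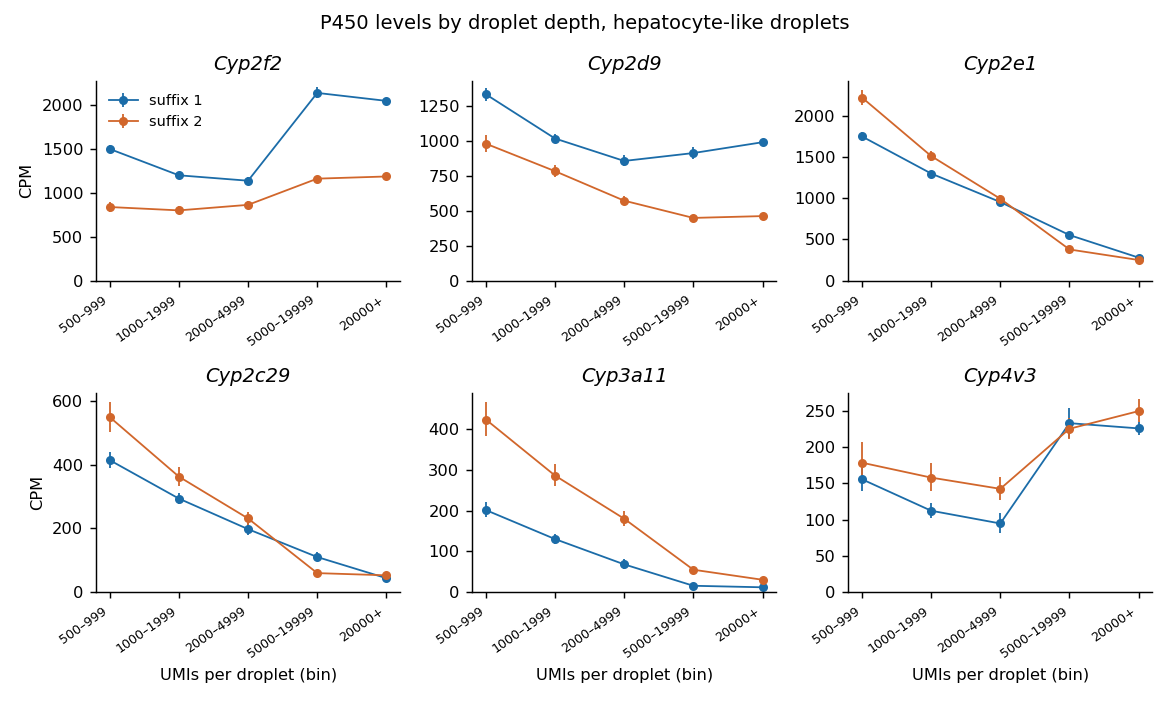
CPM of 6 members in hepatocyte-like droplets by bin of total UMIs per droplet, for each library, with exact 95% Poisson intervals. Cyp2e1, Cyp2c29 and Cyp3a11 are highest in the shallowest bin, while Cyp2f2 and Cyp4v3 are highest in the bins from 5000 UMIs.

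Between the libraries, deep cells with suffix 2 had at least 2-fold more of 5 among 30 members (1.84% of all genes were) and at least 2-fold less of 2 (2.06% of all genes were). The 5 higher were Cyp2c67 at 3.72-fold (2.88 to 4.84), from 6.53 to 24.3 CPM, Cyp3a11 at 3.35-fold (2.78 to 4.04), Cyp3a25 at 2.695-fold (2.47 to 2.95), Cyp2c68 at 2.34-fold (1.88 to 2.91) and Cyp1a2 at 2.09-fold (1.60 to 2.74). The 2 lower were Cyp2c54, from 69.5 to 26.9 CPM with a ratio of 0.386 (0.331 to 0.449), and Cyp2d9, with a ratio of 0.466 (0.449 to 0.483). Cyp2c50 at 0.502, Cyp4a10 at 0.524 (0.494 to 0.554) and Cyp2f2 at 0.570 (0.556 to 0.583) came next. Values in deep cells split by mitochondrial share, and in the other set of cells that a limit of 10% before clustering gave, follow further on, since the ratios of Cyp4a10 and Cyp2f2 turned direction in that other set. The members' total was 0.743 (0.734 to 0.751) times as high with suffix 2. None of these ratios was matched for depth, and deep cells had medians of 26423 UMIs with suffix 1 and 13301 UMIs with suffix 2. Cyp1a2, Cyp2c67, Cyp2c68 and Cyp3a11 were at least 2-fold lower in deep than in shallow droplets of both libraries. Cyp3a11 was higher with suffix 2 in the deepest bin as well. For Cyp1a2, Cyp2c67 and Cyp2c68 the part of depth in the ratio was not tested.

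Some members under a mean of 10 CPM also differed between the libraries. Cyp2a4, a steroid hydroxylase known as female-biased, had 1 UMI in deep cells with suffix 1 and 136 with suffix 2, a ratio of 236 with a counting interval of 41.6 to 9383. Cyp2d12 had 176 UMIs with suffix 1 and 8 with suffix 2, a ratio of 0.0788 (0.0335 to 0.159). Cyp2b9, another female-biased member, had 0 and 17 UMIs, at least 9.83-fold higher with suffix 2 against a floor of 3 UMIs. Cyp4a31 was at 12.6 and 4.20 CPM and Cyp2a5 at 3.96 and 12.98 CPM. These members were chosen after their values were seen, and Cyp2a4 and Cyp2a5 are near copies.

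The same ratios were computed in shallow droplets and in lymphocyte-like cells. For Cyp3a11, suffix 2 over suffix 1 was 2.15 (1.96 to 2.36) in shallow droplets, 2.39 (1.63 to 3.53) in B-like and 2.64 (2.08 to 3.37) in T-like cells. For Cyp3a25 it was 2.43, 2.71 and 2.57, and for Cyp2f2 0.621, 0.554 and 0.746. The ratio of Cyp4a10, by contrast, was 1.01 (0.914 to 1.11), 1.42 (0.959 to 2.11) and 1.12 (0.902 to 1.40), and that of Cyp2c54 was 0.748, 1.45 and 0.986. Cyp2a4 had 0 UMIs with suffix 1 and 50 with suffix 2 in shallow droplets. With the UMIs per B-like cell subtracted from deep cells, 4 of 29 members were at least 2-fold higher with suffix 2 (3.03% of all genes were) and 3 lower (6.64%). Suffix 2 over suffix 1 was then 0.273 for Cyp2c54, 0.409 for Cyp2c50 and 0.448 for Cyp2d9.

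**Figure D4:**
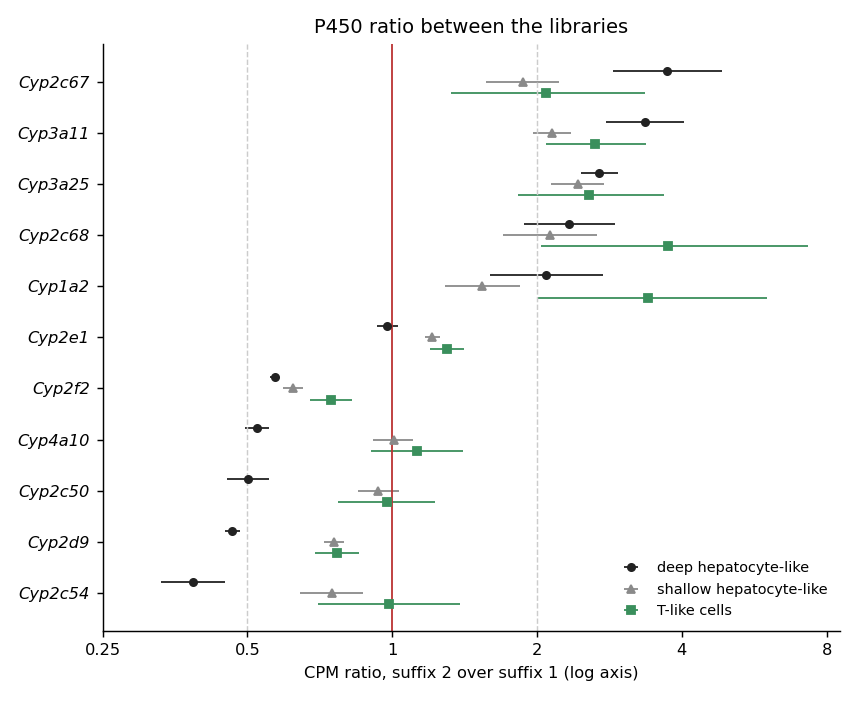
Ratio of CPM, suffix 2 over suffix 1, on a log axis, for the members at the ends of the ratio in deep cells and for Cyp2e1. Circles are deep and triangles shallow hepatocyte-like droplets, squares are T-like cells, and bars are exact 95% counting intervals. The 5 upper members lie above 1 in all 3 kinds of droplets, while Cyp4a10 and Cyp2c50 lie near 0.5 in deep cells only.

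Deep cells were also split by mitochondrial share. From 10 to 25% in bins of 5%, the members' total was 7536, 7300 and 6999 CPM with suffix 1 and 5495, 5605 and 5611 CPM with suffix 2, and under 10% it was 6131 CPM (64 cells) and 4556 CPM (153 cells). Cyp3a11 was higher with suffix 2 in each bin, at 4.42, 3.29, 2.73 and 2.32-fold from the lowest bin to the highest, and Cyp3a25 at 3.27, 3.04, 2.45 and 3.04-fold. Cyp2c67 was at 4.63, 3.25, 3.13 and 4.301-fold. Cyp2c68 was at 1.39 (0.744 to 2.76), 2.08, 2.03 and 4.62-fold and Cyp1a2 at 2.05 (0.886 to 5.52), 1.33 (0.655 to 2.58), 2.11 and 2.46-fold, so for these 2 members the interval held 1 in 1 or more bins. Cyp2f2 was at 0.606 (0.561 to 0.655), 0.571, 0.613 and 0.592, Cyp2d9 at 0.385, 0.393, 0.540 and 0.528, and Cyp2c54 at 0.290, 0.301, 0.327 and 0.619. These 3 were thus below 1 in every bin, the one under 10% included. Where droplets over a share of 10% were removed before clustering, the deep hepatocyte-like cells were another set, of 147 and 181 cells, and the totals became 3088 and 5062 CPM. In that set 15 of 33 members were at least 2-fold higher with suffix 2, where 19.5% of all genes were, and 0 lower, where 6.04% of all genes were. There the order of the totals turned, and so did the ratios of Cyp4a10, at 1.58, and Cyp2f2, at 1.60. Cyp2d9 was then at 0.908, Cyp2c50 at 0.666 and Cyp2c54 at 0.612, and Cyp1a2 at 1.37, so none of these was past 2-fold. Cyp2c67 at 4.37-fold, Cyp3a11 at 2.95-fold, Cyp3a25 at 7.62-fold and Cyp2c68 at 3.27-fold stayed higher with suffix 2.

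Genes that serve all P450 enzymes were given by a fixed list. Of 13 genes for electron donors and haem synthesis, 10 had a mean of 10 CPM or more in deep cells and 0 were past 2-fold in either direction (1.84% of all genes were higher with suffix 2 and 2.06% lower). Por, the electron donor, was at 81.2 and 45.2 CPM, and Alas1, the rate-limiting enzyme of haem synthesis, at 255 and 133 CPM. Of 24 regulators, 22 had that mean, 1 was higher with suffix 2 and 5 were lower, against those same shares of all genes. The 1 higher was Cebpa, and the lower ones included Onecut1 (164 and 47.6 CPM), Foxa2 (45.3 and 21.0 CPM) and Dbp (76.0 and 29.8 CPM). Hnf4a (214 and 205 CPM), Ppara (198 and 177 CPM) and the PXR gene Nr1i2 (24.2 and 29.3 CPM) were within 2-fold.

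Glul, glutamine synthetase, marks the hepatocytes next to the central vein and was used to ask whether members follow the zone. After thinning to 5000 UMIs, 5 deep cells with suffix 1 and 2 with suffix 2 had at least 3 Glul UMIs, and 424 and 478 had 0. The 5 cells held 6, 1, 3, 10 and 6 Cyp2e1 UMIs among 13530, 6693, 6627, 6115 and 5586 in all, and the 2 cells held 56 and 2 among 9470 and 5444. Summed, Cyp2e1 was 2.13-fold (1.39 to 3.12) higher with Glul in suffix 1 and 13.3-fold (10.1 to 17.3) in suffix 2, where 56 of the 58 UMIs came from 1 cell. Cyp2f2 was at 0.086 (0.035 to 0.178) and 0.340 (0.125 to 0.741). Of 31 members tested with suffix 1, 7 were at least 2-fold higher (42.2% of all genes were) and 13 lower (7.42%), and of 33 with suffix 2, 14 were higher (33.6%) and 5 lower (2.99%). The hepatocyte markers summed to 34578 and 64168 CPM in the Glul-high cells, against 112227 and 121317 CPM in the others, and endothelial and Kupffer or macrophage markers were at 0 with suffix 1 and at 67.1 and 134 CPM with suffix 2. With so few cells these counts are not read further.

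The members at the ends of this comparison, among the 20 that had a UMI in the Glul-high cells of both libraries, were Cyp1a2, Cyp2e1, Cyp3a11, Cyp2c50 and Cyp2d40 at the high end and Cyp2f2, Cyp4v3, Cyp4f14, Cyp2d10 and Cyp2j5 at the low end. Cyp1a2 rested on 1 and 3 UMIs. Cyp3a11 also rested on 1 and 3 UMIs, and Cyp4v3 and Cyp4f14 on 1 UMI in each library.

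More Glul-high droplets were found from 1000 up to under 5000 UMIs, a range chosen after the data were seen: 130 with suffix 1 and 16 with suffix 2, against 3258 and 1799 with no Glul UMI after thinning to 1000. Their Oat, a pericentral gene, was at 1718 and 4361 CPM against 48.5 and 85.8 CPM, and their periportal list at 2766 and 2835 CPM against 7113 and 7953 CPM. The 12 hepatocyte markers were lower as well, at 83263 and 94774 CPM against 111205 and 137353 CPM, and the part of this in the ratios below 1 was not tested. Cyp2e1 was at 1447 CPM against 1153 with suffix 1, a ratio of 1.26 (1.12 to 1.40), and at 1672 against 1212 with suffix 2, a ratio of 1.38 (1.01 to 1.84). Cyp1a2 was 2.59-fold (1.57 to 4.07) higher with suffix 1 and rested on 3 UMIs with suffix 2. Cyp3a11 was at 1.45 (1.00 to 2.04) and 2.44 (1.36 to 4.05), Cyp2f2 at 0.673 (0.578 to 0.780) and 0.564 (0.300 to 0.967), and Cyp2d9 at 0.622 (0.521 to 0.737) and 0.548 (0.262 to 1.01). By the geometric mean of both libraries, over the 27 members with a UMI in both Glul-high sets, the lowest were Cyp3a25, at 0.751 (0.371 to 1.36) and 0.240 on 1 UMI, and Cyp2c70, at 0.501 (0.320 to 0.7498) and 0.441 on 2 UMIs. The highest were Cyp1a2 and then Cyp2c54, at 1.33 (0.867 to 1.96) and 4.001 (1.45 to 8.87).

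With suffix 1, 2 of 32 members, Cyp2c37 and Cyp1a2, were at least 2-fold higher with Glul (11.9% of all genes were) and 1, Cyp2d22, was lower (4.86%). With suffix 2, where 1 UMI is worth 36.3 CPM, 7 of 34 were higher (37.6%) and 2 lower (4.23%). The total in these droplets was 10.9 (10.4 to 11.5) and 11.6 (9.96 to 13.4) member UMIs in Glul-high against 11.7 and 13.8 in Glul-0 droplets. B-like cells held 11.7 and 10.9, so the Glul-0 droplets of suffix 2 were above the B-like number. Cyp2e1 was at 2.51 (2.24 to 2.80) and 2.88 (2.11 to 3.84) UMIs per Glul-high droplet, against 2.03 and 2.31 per B-like cell and 1.89 (1.84 to 1.94) and 2.44 (2.36 to 2.51) per Glul-0 droplet. Of the 5 members counted per droplet, the Glul-high and Glul-0 intervals were apart with suffix 1 for Cyp2e1 and Cyp1a2 (0.162 against 0.0589), higher in Glul-high droplets, and for Cyp2f2 (1.42 against 1.99) and Cyp2d9 (1.05 against 1.60), lower there. With suffix 2 they were apart for Cyp3a11 (0.938 against 0.449), higher in Glul-high droplets, and for Cyp2f2 (0.813 against 1.68) and Cyp2d9 (0.625 against 1.33), lower there. B-like cells held 2.02 and 0.964 Cyp2f2 UMIs and 1.56 and 1.06 Cyp2d9 UMIs per cell. Both members were thus under the B-like number in Glul-high droplets of both libraries. Glul-0 droplets were near that number with suffix 1 and above it with suffix 2. The part of free RNA in these differences was not tested. The Glul-high and Glul-0 intervals of the member totals were also apart in both libraries, lower in Glul-high droplets. Depth still differed, with medians of 1502 against 1396 UMIs with suffix 1 and 1514.5 against 1739 UMIs with suffix 2. As CPM the totals were 6295 against 7139.5 with suffix 1 and 6723 against 6865 with suffix 2.

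Deep cells were then ranked within each library by pericentral over periportal landmarks, none of which is a member, and cut into quintiles. From the first to the last quintile, the median periportal landmark UMIs of 5000 per cell were 45, 35, 29, 34.5 and 27.5 with suffix 1 and 59, 48, 39, 47 and 39 with suffix 2. The median pericentral UMIs were 0 in the first 3 quintiles of both libraries, 1 in the fourth, and 2 and 1 in the last. Cyp2e1 was at 279.8, 234, 265, 281 and 573 CPM from the periportal-most to the pericentral-most quintile with suffix 1 and at 243, 229.7, 244, 324 and 550.2 CPM with suffix 2. With suffix 1 the rise was in the last quintile alone, and with suffix 2 it began in the fourth, whose interval lay above that of the third. Last over first, the ratio was 2.05 (1.88 to 2.24) and 2.26 (2.00 to 2.56).

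Cyp2c29 was 4.64-fold (3.56 to 6.11) and 2.93-fold (2.21 to 3.91) higher in the last than in the first quintile, Cyp1a2 3.103-fold (1.68 to 6.04) and 3.79-fold (2.01 to 7.66), and Cyp2c37 3.07-fold (1.81 to 5.41) and 3.60-fold (1.495 to 9.93). These 3 and Cyp2e1 were the 4 members at least 2-fold higher with suffix 1, of 32 tested, where 0.52% of all genes were higher. Cyp2c54, Cyp2c50, Cyp2a5 and Cyp4a12a joined them with suffix 2, 8 of 34 tested, where 3.23% of all genes were higher. In the other direction, Cyp2d12 alone was at least 2-fold lower with suffix 1 (0.214% of all genes were) and no member was with suffix 2 (0.606%). Cyp2f2 was at 1757 against 2105 CPM and at 1039.7 against 1133 CPM. Over single deep cells the rank correlation with the landmark score was weak, at 0.16 and 0.08 for Cyp2c29 and 0.08 and 0.06 for Cyp1a2. It was 0.11 and 0.18 for Cyp2e1 and -0.16 and -0.05 for Cyp2f2. With suffix 1 the quintiles of Cyp2c29 were uneven, at 24.3, 60.2, 41.8, 39.2 and 112.5 CPM, and 1 deep cell held 97 of its 743 UMIs. The member total was 7455 and 7034 CPM with suffix 1 and 5109.9 and 5553 CPM with suffix 2. Median depth was lower in the last quintile, at 24796 against 27899 UMIs and 11781 against 13069 UMIs, and its part in the ratios was not tested.

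**Figure D5:**
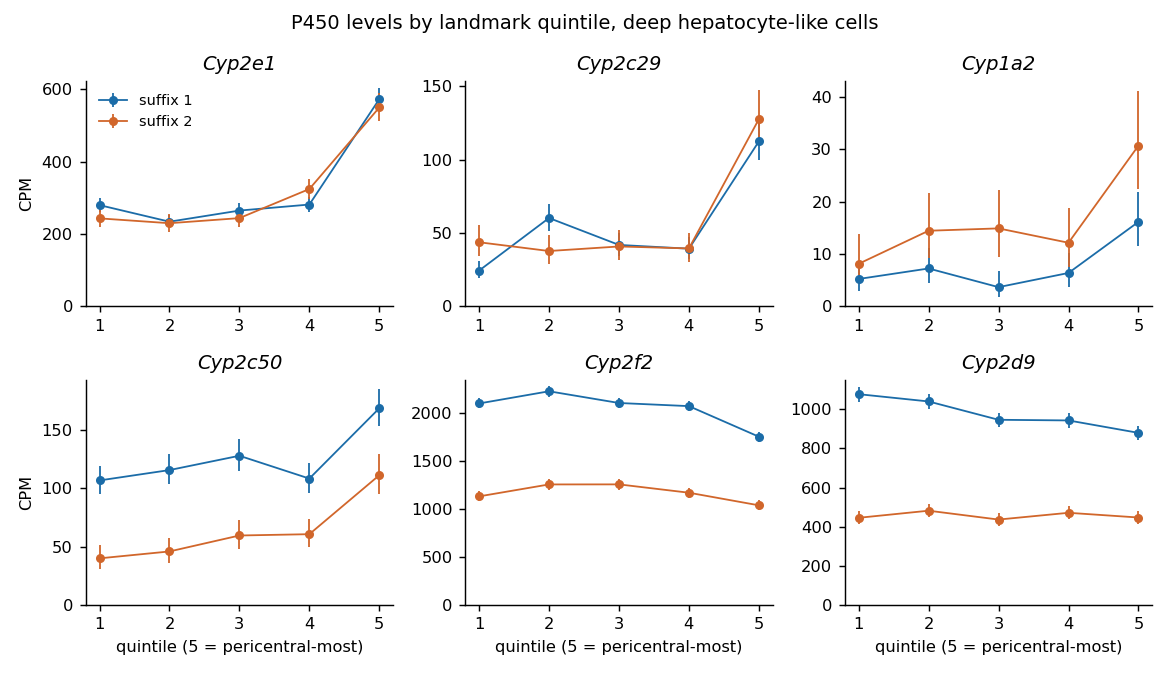
CPM of 6 members in deep hepatocyte-like cells by quintile of the landmark rank, from periportal-most (1) to pericentral-most (5), with exact 95% Poisson intervals. Cyp2e1, Cyp2c29, Cyp1a2 and Cyp2c50 are highest in quintile 5 of both libraries, and Cyp2f2 is lowest there.

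A few members were higher outside hepatocyte-like cells. Cyp4f18, a leukotriene hydroxylase of leukocytes, had 1 UMI in the deep cells of each library but was at 183 (143 to 232) and 144 (86.4 to 224) CPM in neutrophil-like cells, 77.1 and 68.5 CPM in monocyte-like cells and 49.1 and 48.0 CPM in B-like cells. Cyp4b1, an enzyme that activates protoxins, was at 265 CPM (229 to 305) and 235 CPM (202 to 272) in endothelial-like cells against 0.857 and 1.03 CPM in all hepatocyte-like cells. Cyp4f16 was at 44.4 and 49.1 CPM in monocyte-like cells against 1.81 and 1.27 CPM. Cyp4f13 was at 46.6 CPM (36.3 to 58.9) and 53.4 CPM (29.2 to 89.5) in cholangiocyte-like cells against 26.9 and 23.4 CPM in hepatocyte-like cells. In both libraries the interval of each of these 4 members in the class named lay above that in hepatocyte-like cells.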

How the data were processed

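Livers of 2 mice were dissociated by perfusion and digestion, and cells were captured with the 10x 3′ v3.1 chemistry on 1 lane per sample. The deposited values are counts of UMIs per gene and barcode, which the authors made with Cell Ranger (the submitters' processing notes name Cell Ranger 7.1.0, bcl2fastq 2.20.0, STAR 2.7.2a and build mm10). No deposited map ties a barcode suffix to a sample, so the libraries stayed unassigned. Barcodes with at least 500 UMIs, at least 200 genes and at most 25% mitochondrial UMIs were kept. Cells were clustered with scanpy 1.11.5 (2000 variable genes without members or Glul, 30 components, 15 neighbours, Leiden resolution 1) and named from fixed markers. Of 41 clusters, 11 were hepatocyte-like and 7 were left unnamed. A doublet caller marked 0 and 1 cells and so had not worked; doublets remain. UMIs were summed per library as CPM with exact 95% Poisson intervals, ratios have exact conditional binomial intervals, shares have Clopper-Pearson intervals, and ratios against 0 use a floor of 3 UMIs. PCR duplicates are collapsed in UMIs, and intervals cover counting error only. With 1 library per genotype no test was run. Genes with a mean of 10 CPM over the 2 sides entered a comparison, and past 2-fold means a ratio of at least 2 or at most 0.5. By the rule, members named with values are those at a mean of 100 CPM or more and the 5 at each end of the library ratio and of the Glul ratio in deep cells. Members of the fixed lists, those past 2-fold in a comparison and those higher outside hepatocyte-like cells were named as well, after their values were seen. The members and lists were chosen with earlier results of these data known. Levels by depth bin were planned. Their summary as a ratio of deep over shallow, the matched-depth Glul comparison and the split by mitochondrial share were chosen after seeing the data. The summing and ratio steps were tested on simulated data. Depth was 60048646 UMIs over 17313 barcodes and 52355243 UMIs over 15003 barcodes. Alternatives covered filters, clustering, depth limits, scaling and Glul limits.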

Additional observations from a re-analysis of the deposited data

Results flagged for a closer look

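Droplets with over 25% mitochondrial UMIs, 5675 with suffix 1 and 8886 with suffix 2, entered no comparison above, but P450 UMIs in them exceeded the CPM of B-like cells. All members summed to 6306.5 and 7023.3 CPM there, against 2869.4 and 3090.9 CPM in B-like cells. Cyp2e1 was at 1091.5 and 1482.4 CPM and Cyp2f2 at 984.8 and 573.5 CPM. Per droplet this was 20.56 and 20.88 member UMIs, against 11.7 and 10.9 per B-like cell. The suffix 2 over suffix 1 ratio in these droplets was 2.42 for Cyp3a11 and 0.582 for Cyp2f2, and Cyp2a4 had 1 and 320 UMIs. For Cyp4a10, Cyp2c50, Cyp2d9 and Cyp2c54 it was 0.989, 1.105, 0.865 and 0.834, against 0.524, 0.502, 0.466 and 0.386 in deep cells. The cause was not tested.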

How the results depend on the processing

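Of 312 alternative values, 61 moved past the margin set for each result and 2 reversed direction, both among the 140 for library ratios of named members, of which 118 stayed and 20 moved. The reversals came with a mitochondrial limit of 10%, where suffix 2 over suffix 1 was 1.584 for Cyp4a10 and 1.598 for Cyp2f2 (0.5236 and 0.5695 as reported), and the order of the member totals turned as well. With a mitochondrial limit of 10% before clustering, the deep totals were 3088.4 and 5062.0 CPM (7219.4 and 5362.6 as reported), 15 members were at least 2-fold higher with suffix 2 and 0 lower, 13 were lower in deep cells of both libraries, Glul gave 2 higher and 4 lower with suffix 1 and 1 lower with suffix 2, and 10 were higher in the last quintile of suffix 1. With a limit of 50%, the suffix 2 total was 5709.3 CPM and 1 member was lower. The suffix 1 total was 6946.2 CPM at resolution 0.5, 6949.6 CPM with members and Glul among the variable genes and 6969.0 CPM with cells picked by marker share, and that of suffix 2 was 5441.0 CPM at resolution 2 and 5307.7 CPM as a mean over cells. Deep cells from 2000 UMIs gave 7075.6 and 5533.2 CPM, and subtracting B-like UMIs gave 7854.8 and 5760.0 CPM. CPM without mitochondrial genes gave 4 members lower with suffix 2 and 4 higher with Glul in suffix 1. A mean of 50 CPM left 1 higher and 1 lower between libraries and 2 higher with Glul in suffix 1. Deep cells from 10000 UMIs gave 2 higher and 5 lower with Glul in suffix 1 and 2 higher by quintile, and marker share also gave 2 by quintile. Glul-high from 5 or from 10 UMIs gave 1 lower in suffix 2, and cells without endothelial or Kupffer UMIs gave 4 higher and 0 lower there. At matched depth the Glul counts were 2 higher and 1 lower in suffix 1 and 7 and 2 in suffix 2, or 3 and 1, and 7 and 2, with unnamed clusters added. Deep cells from 10000 UMIs held no Glul-high cell in suffix 2, and marker share none in suffix 1, so these gave no value. The causes were not tested. No paired analysis was possible because each genotype has 1 sample and no result comes from a test.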
